A study of Rattus norvegicus with 6 samples.

Results

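The genes described are 10 chains of the non-fibrillar collagens: Col6a1, Col6a2 and Col6a3 of collagen VI, Col8a1 and Col8a2 of the network-forming collagen VIII, Col12a1, Col14a1 and Col16a1 of the FACIT group (fibril-associated collagens with interrupted triple helices), and Col15a1 and Col18a1, the multiplexins of the basement membrane zone. They were chosen by gene name from a table of 33300 rows, and each name had 1 row. RNA-seq libraries came from tendon stem/progenitor cells of the rat, precursor cells that reside in tendon: 3 libraries with 500 uM N-acetyl-L-cysteine (NAC) in F12 medium and 3 libraries in F12 medium alone (Control). All 6 libraries were labelled 7 days and carry the label of tenogenic differentiation, which the submitters entered as the genotype, and the label mesenchymal stem cells, entered as the cell line. NAC is a thiol compound that serves cells as an antioxidant and a source of cysteine. The labels name neither the number of animals nor separate cultures, so p-values measure the spread between these libraries, which may be technical.

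Values are FPKM, fragments per kilobase of gene length and scaled to a library total set by the authors, so that levels of different chains can be set side by side per length. Between 12487215 and 14941949 reads per library could be recovered from the FPKM steps. All 10 chains passed the filter of a mean FPKM of at least 1, with 433 to 259784 reads per chain and library. All 5 tendon markers (Scx, Mkx, Tnmd, Thbs4 and Fmod) reached a mean of 1 FPKM, and none of the 5 was called by limma. Their sum was 864 to 954 FPKM in NAC and 583 to 817 FPKM in Control, without overlap. Most of that sum was Thbs4, at 750 to 841 FPKM in NAC and 491 to 729 FPKM in Control. Fmod stood at 83.1 to 97.4 FPKM in NAC and 69.6 to 87.3 FPKM in Control. Mkx stood at 2.82 to 4.95 FPKM in NAC and 4.90 to 5.69 FPKM in Control. Scx stood at 11.2 to 12.4 FPKM in NAC and 11.4 to 13.9 FPKM in Control. Tnmd stood at 1.93 to 2.87 FPKM in NAC and 1.06 to 1.80 FPKM in Control, also without overlap (limma adjusted p = 0.0909). Markers of endothelial cells, which also make collagens VIII, XV and XVIII, summed to 20.3 to 22.9 FPKM in NAC and 19.8 to 21.5 FPKM in Control. Nearly all of that sum was Egfl7, whereas Cdh5 was at 0 in all 6 libraries and Tie1, Tek, Vwf and Kdr stayed under 1 FPKM, and Pecam1 was not analysed here. Of 7 leukocyte markers 2 reached a mean of 1 FPKM, Cd14 (14.2 to 17.2 FPKM in NAC and 13.6 to 14.4 FPKM in Control) and Cd68 (3.68 to 5.10 FPKM in NAC and 4.12 to 7.03 FPKM in Control), while Ptprc and Tyrobp were at 0 throughout. The leukocyte list summed to 18.5 to 21.0 FPKM in NAC and 18.0 to 21.6 FPKM in Control. Of 6 markers of smooth muscle or pericytes 3 reached a mean of 1 FPKM (Myh11, Des and Cnn1), and the sum of the list was 47.9 to 59.5 FPKM in NAC and 59.1 to 75.6 FPKM in Control, with Myh11 called lower (15.7 to 18.4 FPKM in NAC and 21.5 to 22.4 FPKM in Control). The adipocyte list summed to 1119 to 1213 FPKM in NAC and 880 to 1151 FPKM in Control. Nearly all of that was Lpl, whereas Adipoq and Plin1 stayed under 1 FPKM. The Schwann cell list summed to 47.7 to 53.2 FPKM in NAC and 46.9 to 55.0 FPKM in Control, mostly S100b. The cartilage list summed to 10.2 to 11.6 FPKM in NAC and 10.2 to 14.5 FPKM in Control, mostly Sox9. No marker of skeletal muscle or epithelium reached a mean of 1 FPKM. The part of such cells, or of the tendon marker level, in the collagen values was not tested.

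Collagen VI is secreted as a trimer of 3 chains, α1, α2 and α3, which assembles into beaded microfilaments around cells, and inherited defects of these chains in humans cause muscle disease with joint contractures. FACIT collagens do not form fibrils themselves but decorate the surface of collagen I fibrils, collagen VIII builds hexagonal sheets, and collagens XV and XVIII carry glycosaminoglycans and release C-terminal fragments (endostatin from collagen XVIII). In tendon, collagens VI, XII and XIV lie in the matrix around the cells and the fibrils.

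With NAC, 9 of the 10 chains rose and none fell, by limma on log2(FPKM + 1), with p-values adjusted by Benjamini-Hochberg across the 12733 genes tested. Of all tested genes 6.08% were called higher and 2.72% lower at the same threshold, an adjusted p under 0.05. The chain short of it was Col8a1. The log2 fold changes of the 10 chains ran from 0.26 (Col8a1) to 1.30 (Col6a3) with a median of 0.76, beside a median of -0.0063 for all tested genes, whose central 95% lay between -0.40 and 0.61. In 9 chains the 3 NAC values all lay above the 3 Control values, which was the case in 16.7% of tested genes (32.6% did not overlap in either direction). The summed FPKM of the 10 chains was 3821 ± 178 in NAC and 2392 ± 28.9 in Control (SD, n = 3 each), a 1.60-fold difference. In RNA from whole cultures, more RNA per cell and more cells that make these chains cannot be told apart. The 10 chains were chosen with results of these data known, so the count is a description of this set.

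**Figure D1:**
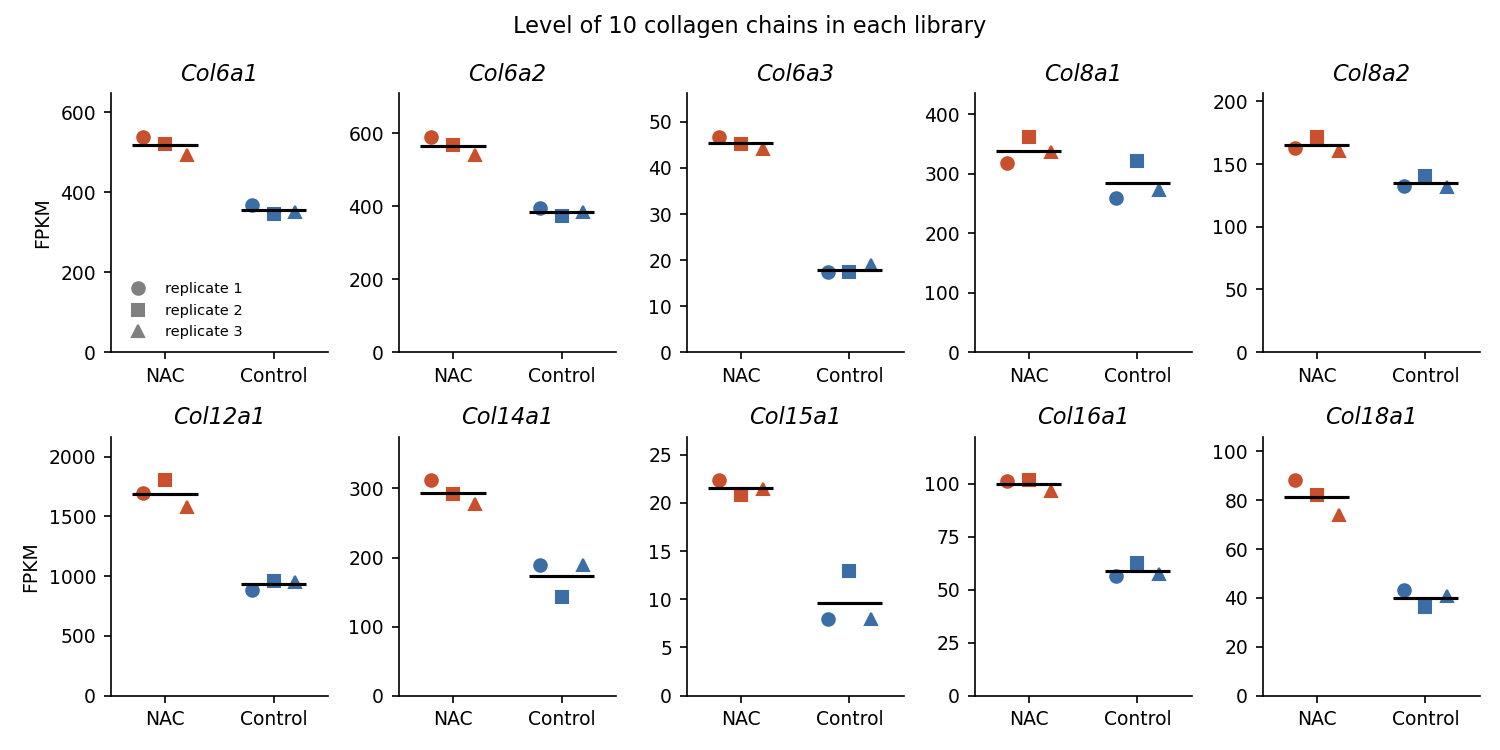
FPKM (linear axes from 0, one scale per gene) of each of the 10 chains in the 3 NAC and 3 Control libraries. Points are libraries, with 1 symbol per replicate number, and bars are group means. Col8a1 is the chain whose groups overlap, with Control 2 at 322 FPKM above NAC 1 at 317 FPKM.

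The order of the 10 chains by level was the same in all 6 libraries. Col12a1 was the most abundant, followed by Col6a2, Col6a1, Col8a1, Col14a1, Col8a2, Col16a1, Col18a1, Col6a3 and Col15a1. Each chain's range lay clear of that of the next chain in the order, in NAC and in Control. The last place rests on the Col15a1 row alone. Added to LOC100909752, a second row of collagen XV described below, it reached 17.2, 24.5 and 20.6 FPKM in Control 1 to 3. Col6a3 stood at 17.5, 17.4 and 18.8 FPKM there, below that sum in Control 2 and Control 3. In NAC the sum (36.1 to 41.2 FPKM) stayed below Col6a3 (44.2 to 46.8 FPKM). By mean FPKM over the 6 libraries Col12a1 ranked 26 and Col15a1 4645 of the 12733 tested genes. The median spread between libraries was close to that of all tested genes above a minimum level, not matched further by level. The median coefficient of variation of the 10 chains was 4.38% in NAC and 5.12% in Control, against 4.16% and 4.74% over the 4775 tested genes with a mean of at least 15 FPKM. Single chains varied more in Control, with 11.7% for Col8a1, 15.5% for Col14a1 and 29.5% for Col15a1.

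Among the collagen VI chains, α1 and α2 rose to a like extent and α3 rose more. Col6a1 (ENSRNOG00000001249; chromosome 20, 12658065 to 12675561, plus strand) stood at 539, 519 and 494 FPKM in NAC 1 to 3, against 368, 345 and 350.1 FPKM in Control 1 to 3. Col6a2 (ENSRNOG00000001254; chromosome 20, 12773427 to 12801180, plus strand) stood at 591, 567 and 541 FPKM in NAC, against 396, 374 and 384 FPKM in Control. In both chains the lowest NAC library lay well above the highest Control library. The log2 fold changes were 0.54 ± 0.0455 for Col6a1 and 0.56 ± 0.0447 for Col6a2 (SE, limma adjusted p = 0.00154 and 0.00127), or 46.0% and 47.2% more FPKM on average. Col6a3 (ENSRNOG00000019648; chromosome 9, 97926787 to 98004546, minus strand), whose C-terminal end is cut off after secretion as the fragment endotrophin, stood at 46.8, 45.1 and 44.2 FPKM in NAC, against 17.5, 17.4 and 18.8 FPKM in Control. That is a 2.54-fold difference of the means, with a log2 fold change of 1.30 ± 0.0482 (limma adjusted p = 2.34e-04) and a 95% interval of 1.18 to 1.41. Of the 12733 tested genes 21 had a higher log2 fold change. The intervals of Col6a1 (0.44 to 0.65) and Col6a2 (0.45 to 0.66) lay wholly below that of Col6a3. The genome build behind these coordinates is not stated in any source used here. The deposited table lists Col6a3 as a processed transcript and the other 9 chains as protein-coding.

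The ratio of chains within a library does not depend on how libraries were scaled to each other. Col6a2 stood at 109.7%, 109.3% and 109.5% of Col6a1 in NAC 1 to 3, and at 107.8%, 108.4% and 109.7% of Col6a1 in Control 1 to 3. These overlap, with means of 109.5% ± 0.204 in NAC and 108.6% ± 0.957 in Control (SD, n = 3 each; exact permutation p = 0.30). Col6a3 stood at 8.69%, 8.69% and 8.94% of Col6a1 in NAC, against 4.75%, 5.04% and 5.38% in Control, so that the groups did not overlap. The log2 of that ratio differed by 0.80 between the groups, and by 0.79 when taken over Col6a2. Set against Col1a1, the main fibrillar chain of tendon, the α1 and α3 chains moved in opposite directions. Col6a1 amounted to 9.49% ± 0.0927 of Col1a1 in NAC and 13.0% ± 0.486 in Control, and Col6a3 to 0.832% ± 0.0139 of Col1a1 in NAC and 0.655% ± 0.0252 in Control. The Col6a2 ratio to Col1a1 was 10.4% ± 0.0830 in NAC and 14.1% ± 0.423 in Control. Of the 9 ratios computed, the 5 that separated the groups completely, all of them named here, each had an exact two-sided permutation p of 0.10, the smallest that 3 against 3 libraries allow, and 0.18 after Benjamini-Hochberg adjustment, so none could pass 0.05. The level of a ratio rests on the deposited gene lengths (3082 bases for Col6a1, 3695 for Col6a2 and 10988 for Col6a3), whereas its difference between groups does not. The Col6a3 row is listed as a processed transcript, and whether it holds all reads of that gene was not tested.

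**Figure D2:**
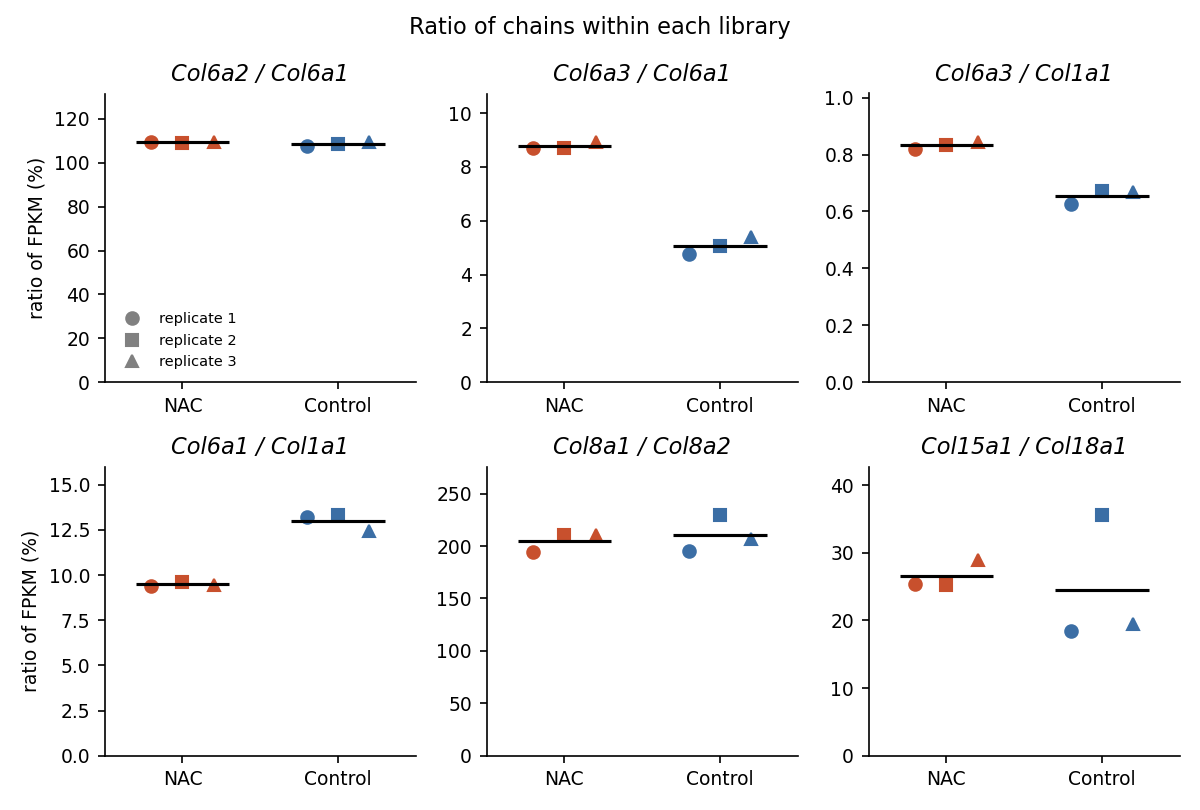
Ratio of the FPKM of 2 chains in the same library, in percent (linear axes from 0), for 6 of the 9 ratios computed. Points are libraries and bars are group means. Col6a3 relative to Col6a1 lies between 8.69% and 8.94% in NAC and between 4.75% and 5.38% in Control, while Col6a2 relative to Col6a1 overlaps between groups.

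For 7 of the 10 chains RefSeq's promoter table (build GRCr8) holds a sequence, and the 250 bases before the transcript start were searched on both strands. The promoters of Col6a1 (chr20:11905440-11905689, plus strand) and Col6a3 (chr9:98886959-98887208, minus strand) are shown because these chains share a trimer and differ in the size of their rise. Capitals mark the AP-1 motif TGANTCA and the SMAD motif CAGAC or its complement.
Col6a1: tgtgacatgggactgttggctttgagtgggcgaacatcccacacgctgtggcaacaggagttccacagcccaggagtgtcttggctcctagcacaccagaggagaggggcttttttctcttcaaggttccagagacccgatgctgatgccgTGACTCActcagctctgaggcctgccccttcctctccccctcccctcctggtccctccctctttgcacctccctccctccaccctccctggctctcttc
Col6a3: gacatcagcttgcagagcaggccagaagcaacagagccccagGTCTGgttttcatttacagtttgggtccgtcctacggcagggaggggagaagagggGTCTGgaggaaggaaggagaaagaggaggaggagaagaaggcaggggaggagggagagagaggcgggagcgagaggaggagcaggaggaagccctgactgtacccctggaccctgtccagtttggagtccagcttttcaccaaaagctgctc
The Col6a1 window holds 1 AP-1 match, 99 to 93 bases before the start, a motif found in 6.34% of 33469 promoter windows of this length. The Col6a3 window holds 2 SMAD matches, and 42.9% of all windows hold at least 1. Neither window holds a GC box (GGGCGG), which 30.5% of all windows hold. A match describes letters and not binding, and no match says nothing about a factor.

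The chains of collagen VIII had the smallest fold changes of the 10, and of this pair Col8a2 rose and Col8a1 did not pass the threshold. Col8a1 (ENSRNOG00000039668; chromosome 11, 44877859 to 45007891, plus strand) stood at 317, 363 and 337 FPKM in NAC, against 259, 322 and 272 FPKM in Control. Control 2 lay above NAC 1, so that the groups overlapped, and the log2 fold change of 0.26 ± 0.0892 did not pass the threshold (95% interval 0.045 to 0.47; limma adjusted p = 0.127). Without Control 2 it was 0.35 and passed (adjusted p = 0.0268; lowest and highest over the settings 0.0268 and 0.645). Col8a2 (ENSRNOG00000010841; chromosome 5, 144308611 to 144335172, plus strand) stood at 163, 172 and 160.2 FPKM in NAC, against 133, 140.4 and 132 FPKM in Control, with no overlap. Its log2 fold change was 0.29 ± 0.0432 (limma adjusted p = 0.0124). That call ended without NAC 1, NAC 2, Control 1 or Control 3 (0.26 to 0.30, adjusted p = 0.0507 to 0.0564), and also under library totals, where the log2 fold change was 0.11, and quantile normalization, where it was 0.17. Col8a1 held 1.94, 2.11 and 2.11 times the FPKM of Col8a2 in NAC and 1.95, 2.30 and 2.06 times in Control (exact permutation p = 0.80). That ratio turned its direction without NAC 1 or without Control 2.

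The promoters of this pair are shown because these chains had the smallest fold changes and both windows hold several GC boxes. They are those of Col8a1 (chr11:56246532-56246781, plus strand) and Col8a2 (chr5:143870519-143870768, plus strand), with GC boxes (GGGCGG or its complement) and the SMAD motif in capitals.
Col8a1: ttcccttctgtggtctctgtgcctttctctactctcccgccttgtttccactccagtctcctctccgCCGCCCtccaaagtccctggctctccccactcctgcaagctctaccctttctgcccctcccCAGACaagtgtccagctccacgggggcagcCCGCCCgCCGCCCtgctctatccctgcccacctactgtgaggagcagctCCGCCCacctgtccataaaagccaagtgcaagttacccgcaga
Col8a2: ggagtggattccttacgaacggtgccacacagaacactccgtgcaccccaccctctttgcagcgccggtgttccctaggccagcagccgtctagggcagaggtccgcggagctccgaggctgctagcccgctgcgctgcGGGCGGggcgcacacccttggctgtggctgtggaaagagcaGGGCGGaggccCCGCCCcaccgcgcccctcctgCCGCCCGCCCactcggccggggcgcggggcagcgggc
The Col8a1 window holds 4 GC boxes and the Col8a2 window 5, the last pair of which overlap each other. GC boxes also lie in the windows of Col16a1 and Col18a1, whose fold changes were larger, and are absent from those of Col6a1, Col6a3 and Col15a1. Of the 7 windows 4 hold a GC box. None of the 7 holds the TATA box TATAAA, which 12.9% of all windows hold. A CCAAT box is likewise in none of the 7 and in 34.0% of all windows. The core of the antioxidant response element, TGACNNNGC, is in none of the 7 and in 10.1% of all windows. The E-box CANNTG, the kind of motif bound by the tendon factor encoded by Scx, is found in 3 of the 7 windows and in 65.5% of all windows. Bases G and C make up a median of 60.4% of the 7 windows and 51.2% of all windows.

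The FACIT chains rose by 1.69-fold to 1.81-fold. Col12a1 (ENSRNOG00000058470; chromosome 8, 87040799 to 87158368, minus strand), a long chain that lies along the collagen I fibrils of tendon, stood at 1694, 1804 and 1577 FPKM in NAC, against 888, 955 and 955 FPKM in Control. Its log2 fold change was 0.86 ± 0.0592 (limma adjusted p = 6.61e-04). The lowest NAC value lay far above the highest Control value. Col16a1 (ENSRNOG00000031475; chromosome 5, 148257642 to 148311645, plus strand), a minor FACIT-like chain, stood at 101, 102 and 96.7 FPKM in NAC, against 56.5, 62.8 and 57.5 FPKM in Control (0.75 ± 0.0501, limma adjusted p = 6.36e-04). Both chains kept their call in all 15 alternative settings. Col14a1 (ENSRNOG00000026415; chromosome 7, 95074236 to 95273298, plus strand), which binds decorin on fibrils, stood at 312, 291 and 277 FPKM in NAC, against 189, 143 and 189 FPKM in Control. No NAC value lay within the Control range, but Control 2 lay apart from the other Control libraries. The log2 fold change was 0.76 ± 0.114 (limma adjusted p = 0.0123), and the call ended without NAC 1 (0.72, adjusted p = 0.0548) or NAC 2 (0.77, adjusted p = 0.0570). Col12a1 held 5.77 ± 0.388 times the FPKM of Col14a1 in NAC and 5.47 ± 1.07 times in Control (SD, n = 3 each; exact permutation p = 0.70), a difference that turned its direction without Control 1.

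Both multiplexins rose, by 2.03-fold and 2.24-fold, beside 2.54-fold for the α3 chain of collagen VI. Col18a1 (ENSRNOG00000001229; chromosome 20, 12225202 to 12332858, plus strand), the precursor of endostatin, stood at 88.3, 82.3 and 73.9 FPKM in NAC, against 43.4, 36.3 and 40.8 FPKM in Control. The groups lay far apart, with a 2.03-fold difference of the means and a log2 fold change of 1.00 ± 0.0858 (limma adjusted p = 0.00168). Col15a1 (ENSRNOG00000039197; chromosome 5, 64476317 to 64542645, plus strand) stood at 22.4, 20.8 and 21.4 FPKM in NAC, against 7.98, 12.9 and 7.97 FPKM in Control. The groups did not overlap, and Control 2 lay above the other Control libraries. The log2 fold change was 1.12 ± 0.168 (limma adjusted p = 0.0124), 1.33 without Control 2, and the call ended without NAC 1 (1.09, adjusted p = 0.0562) or NAC 2 (1.14, adjusted p = 0.0558). Relative to Col18a1, Col15a1 amounted to 25.3%, 25.3% and 29.0% in NAC, against 18.4%, 35.6% and 19.5% in Control (exact permutation p = 0.60). Control 2 lay above and the other Control libraries below all NAC values, and the log2 difference of 0.18 was 0.48 without Control 2.

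Collagen XV had a second row, LOC100909752 (ENSRNOG00000060381; chromosome 5, 62840360 to 62950240, plus strand), which the deposited table describes as like the α1(XV) chain. It was named after its values were seen, and as no source used here states how reads were counted, reads of a shared sequence could have been split between both rows. It stood at 18.9, 19.6 and 14.6 FPKM in NAC, against 9.19, 11.6 and 12.6 FPKM in Control, without overlap. Its log2 fold change of 0.62 ± 0.142 passed (limma adjusted p = 0.0431), a call lost without NAC 1, NAC 2, Control 1, Control 2 or Control 3 (0.50 to 0.71). Col15a1 took 47.3%, 44.6% and 52.6% of the reads of both rows in NAC, against 39.7%, 45.8% and 32.4% in Control. Added together, the rows stood at 39.2 ± 2.78 FPKM in NAC and 20.7 ± 3.66 FPKM in Control (SD, n = 3 each; 1.89-fold, exact permutation p = 0.10, the smallest possible), against 2.24-fold for Col15a1 alone.

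**Figure D3:**
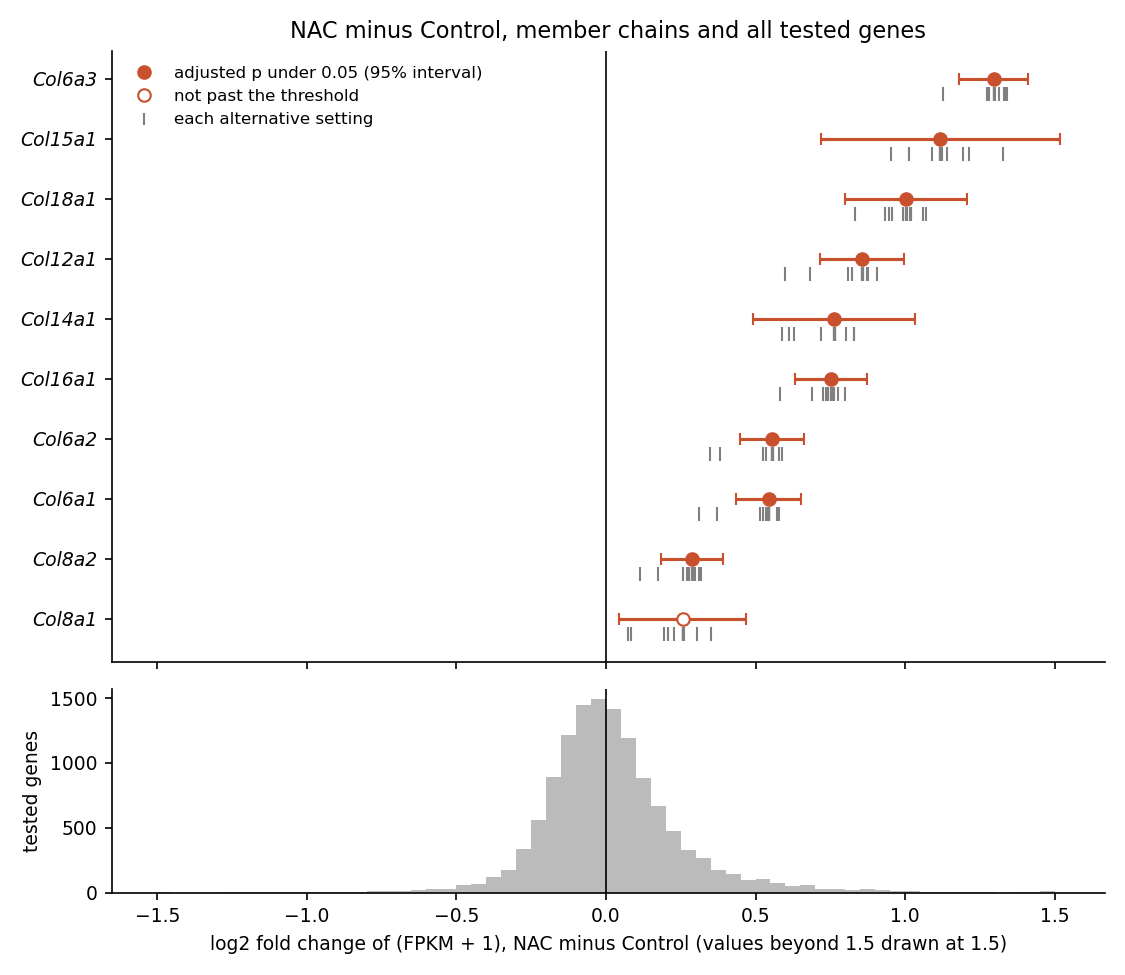
Log2 fold change of each chain, NAC minus Control, with its 95% interval (top, filled where the adjusted p was under 0.05), the values under each alternative setting (grey ticks) and the distribution over all 12733 tested genes (bottom, counts of genes). Every chain lies above 0 in each setting drawn, from 0.075 for the lowest Col8a1 value to 1.34 for the highest Col6a3 value.

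Control 2 stood apart from the other Control libraries along the second principal component of all tested genes, at -21.8 against 7.03 and 10.3, and it lay outside the range of Control 1 and Control 3 in each of the 10 chains. It was lower than both in Col6a1, Col6a2, Col6a3, Col14a1 and Col18a1 and higher than both in Col8a1, Col8a2, Col12a1, Col15a1 and Col16a1. In Col12a1 the margin was small, with 955.5 FPKM in Control 2 and 954.5 FPKM in Control 3. Across all tested genes the share with Control 2 outside that range was not computed, so the count is a description of these chains. The deviation of Control 2 from the mean of the other Control libraries was within 4.14% in the collagen VI chains. It was larger in Col18a1 (-13.8%), Col8a1 (21.3%), Col14a1 (-24.6%) and Col15a1 (61.7%). Without Control 2 all 10 chains were called higher.

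The classes took different shares of collagen RNA in the groups. Over the 44 rows of collagen chains in the lists used, collagen VI made up 8.50%, 8.39% and 8.49% of the summed FPKM in NAC, against 9.88%, 9.50% and 9.54% in Control, although its own level was 1.49-fold higher. Collagen VIII made up 3.79% ± 0.270 in NAC and 5.35% ± 0.545 in Control. The FACIT chains made up 15.6% ± 0.581 in NAC and 14.8% ± 0.461 in Control, and the multiplexins 0.772% ± 0.0252 in NAC and 0.634% ± 0.0155 in Control (SD, n = 3 each). All 10 chains together made up 28.6% ± 0.713 in NAC and 30.5% ± 0.638 in Control, and Col12a1 alone 12.7% ± 0.612 in NAC and 11.9% ± 0.583 in Control. The groups overlapped for Col12a1 (exact permutation p = 0.20). In the 4 classes and in the 10 chains together the groups did not overlap, narrowly so for the FACIT chains, where the lowest NAC and the highest Control library both stood at 15.2%. The exact permutation p was 0.10 for each of these 5 shares, the smallest possible, and 0.12 adjusted over the 6 shares computed. The FACIT difference was 0.779 percentage points, and 0.446 without NAC 2 and 0.522 without Control 1 (exact permutation p = 0.20 and 0.40). The second row of collagen XV, LOC100909752 (17.7 FPKM in NAC and 11.1 FPKM in Control), was counted neither among the multiplexins nor among the 44 rows. The most abundant of the 44 rows was Col1a1, at 5453 ± 253 FPKM in NAC and 2731 ± 124 FPKM in Control. Its rise enters the sum by which every share was divided. The shares were added after the values had been seen.

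**Figure D4:**
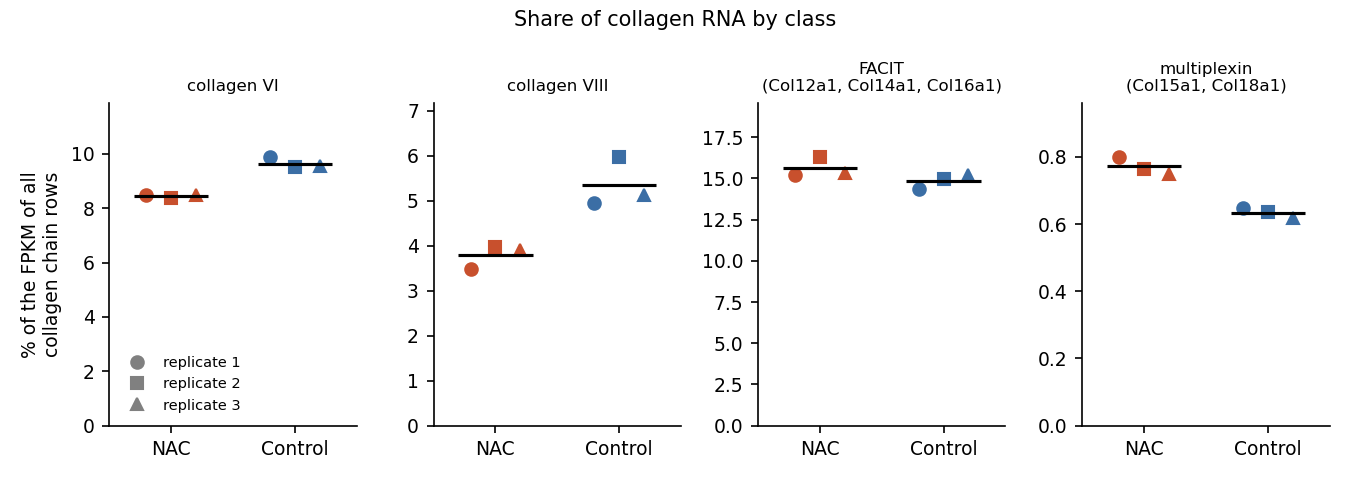
Share of the summed FPKM of the 44 collagen chain rows in the lists used taken by each class, in percent (linear axes from 0), per library. LOC100909752 is not among these rows. Points are libraries and bars are group means. Collagen VI and collagen VIII take a smaller share in NAC than in Control, and the multiplexins a larger one (0.772% in NAC and 0.634% in Control).

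Few other chains of these classes were measurable. Of 14 such genes (among them Col6a4, Col6a5 and Col6a6, chains that can replace α3 in collagen VI, and Col7a1, Col9a1 and Col10a1) 13 had a row and 12 of these lay under the filter. The highest count of Col6a4, Col6a5 and Col6a6 in any library was 4, 3 and 2 reads. Col20a1, the chain that was tested, stood at 1.95 ± 0.290 FPKM in NAC and 1.33 ± 0.523 FPKM in Control (limma adjusted p = 0.274). Of 12 tested fibrillar and basement membrane chains 11 rose and none fell, with a median log2 fold change of 0.71, close to the 0.76 of the 10 chains. Of all tested genes 8.80% were called in either direction. Col1a1 stood at 5453 ± 253 FPKM in NAC and 2731 ± 124 FPKM in Control, Col4a2 and Col4a1 had log2 fold changes of 0.96 and 0.96, and Col5a1, which nucleates fibrils, one of 0.66. The chain not called was Col27a1 (0.22, adjusted p = 0.0684; named after its value was seen). It passed on leaving out Control 2 (0.27, adjusted p = 0.0351; lowest and highest adjusted p over the settings 0.0234 and 0.418). Of 3 tested rows of transmembrane collagens none passed by limma or limma voom, and 1 had an unadjusted p under 0.05. The more abundant Col23a1 row stood at 7.81 ± 2.16 FPKM in NAC and 4.83 ± 0.424 FPKM in Control (limma adjusted p = 0.0911). The other Col23a1 row stood at 2.01 ± 0.610 FPKM in NAC and 1.34 ± 0.322 FPKM in Control (limma adjusted p = 0.271). Col17a1 stood at 1.94 ± 0.127 FPKM in NAC and 1.89 ± 0.150 FPKM in Control (limma adjusted p = 0.894).

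Among receptors of these collagens 6 of 16 tested rose and 1 fell, with a median log2 fold change of 0.19. Itga3, an integrin subunit, stood at 67.1 ± 1.73 FPKM in NAC and 39.2 ± 1.92 FPKM in Control (0.76 ± 0.0471, limma adjusted p = 5.20e-04). The glypican Gpc4 (0.37), the integrin subunit Itgav (0.38) and Itgb1, the β1 subunit of the collagen-binding integrins (0.22), rose less. The Itgb1 call was lost with library totals (0.047), with quantile normalization (0.036) and without NAC 1 or NAC 2 (0.22 to 0.23). Antxr1, a transmembrane receptor that binds collagen VI and endotrophin, fell to 122 ± 3.32 FPKM in NAC, against 149 ± 6.38 FPKM in Control (SD, n = 3 each; -0.29 ± 0.0436, limma adjusted p = 0.0124; named after its value was seen). Its call was lost without NAC 1 (adjusted p = 0.0596; lowest and highest over the settings 0.00227 and 0.0696). Cspg4, the NG2 proteoglycan that binds collagen VI, stood at 21.3 ± 0.440 FPKM in NAC and 18.3 ± 1.92 FPKM in Control (adjusted p = 0.127), and Antxr2, which takes up collagen VI, at 42.8 ± 0.911 FPKM in NAC and 45.5 ± 1.42 FPKM in Control (adjusted p = 0.234), both named after their values were seen. Without NAC 1 or NAC 2 the list held 3 higher calls. It held 0 lower calls without NAC 1, 2 without Control 2, and with library totals 3 higher and 5 lower.

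Of 18 tested matrix partners 11 rose and 1 fell, with a median of 0.60. Lum (0.95 ± 0.0391), a fibril-bound proteoglycan, Fn1 (0.93 ± 0.0427), which encodes fibronectin, and Nid1 (0.62 ± 0.0373), a linker protein of basement membranes, rose with limma adjusted p of 2.34e-04, 2.78e-04 and 5.20e-04. Bgn, which encodes biglycan, a binding partner of collagen VI microfilaments, stood at 2554 ± 60.3 FPKM in NAC and 1743 ± 5.79 FPKM in Control (0.55 ± 0.0356), a call lost under quantile normalization (0.031). Wisp2, a matricellular protein gene, fell to 11.4 ± 0.245 FPKM in NAC, against 28.1 ± 5.96 FPKM in Control (-1.21 ± 0.145, limma adjusted p = 0.00547; named after its value was seen). Without Control 2 the list held 2 lower calls. Of 11 tested proteases that cut these collagens or release fragments from them 7 rose and 1 fell, with a median of 0.23. The lysosomal cathepsins Ctsk (0.52 ± 0.0315), Ctsb (0.34 ± 0.0376) and Ctsl (0.33 ± 0.0362), of which cathepsin L releases endostatin, were among the higher genes. Tll1, a tolloid protease, fell to 9.72 ± 0.606 FPKM in NAC, against 14.99 ± 0.643 FPKM in Control (-0.58 ± 0.0615, limma adjusted p = 0.00365). The calls of Ctsb and Ctsl ended under quantile normalization (0.14 and 0.11). Without NAC 1, NAC 2, NAC 3 or Control 3 the protease list held 4 higher calls.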

How the data were processed

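The authors deposited 1 table of FPKM values (1 column per library, rat Ensembl identifiers), with gene length, name and coordinates. The submitters' processing notes name the mouse builds GRCm38 and mm10, whereas the identifiers are those of rat. No source used here states the aligner, counter or strand setting, and overlapping or antisense genes may share reads. Columns headed N were taken as Control by elimination. Reads were recovered by dividing FPKM times gene length by the step that 1 read is worth in each library, and 100% of values came out whole within 0.01. The authors' library total was 0.909 to 0.925 times that sum in NAC and 1.02 to 1.04 times in Control.

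For the comparison of NAC with Control, log2(FPKM + 1) values of genes whose mean FPKM reached 1 were fitted with limma 3.58.1 (R 4.3.3; lmFit, eBayes with trend, no covariate) and adjusted by Benjamini-Hochberg. Fold changes on this scale understate the change of genes of low expression. Ratios and shares were compared by exact two-sided permutation over libraries. The fit was tested on simulated data. No replicate pair agreed within sampling noise (chi-square over degrees of freedom 3.46 to 8.71). Intervals cover the spread between libraries.

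The 10 chains and all lists were chosen with earlier results of these data known. Named were all 10 chains, at most 4 called genes of each list, by adjusted p (the 2 most abundant of a list without calls), and Col1a1. For each collagen VI chain the 3 genes with the most alike profile were also named, with the 10 chains left out. Hspg2 and Ela1 were matched through other names in RefSeq's gene table, and Col21a1, Col4a3 and Pecam1 had no match. Alternatives were testing all rows, a minimum mean FPKM of 5, a pseudocount of 0.1, library totals, median of ratios, quantile normalization, eBayes without trend, limma voom on the recovered reads, the replicate number as a block and each library left out in turn. Python 3.11.15, numpy 2.4.6, pandas 2.3.3 and matplotlib 3.10.9 were used for tables and figures.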

Additional observations from a re-analysis of the deposited data

How the results depend on the processing

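In none of the 15 alternatives did the fold change of any of the 10 chains turn its direction. The number called higher was 9 as reported, 6 to 10 when 1 library was left out (6 without NAC 1 or NAC 2, 10 without Control 2), 8 with library totals, 8 with quantile normalization and 6 with all 33300 rows tested, and none was called lower in any of these. Col6a1, Col6a2, Col6a3, Col12a1, Col16a1 and Col18a1 kept their calls in all 15. Scaling by library totals moved the median of all tested genes to -0.16. The log2 fold changes of the chains then ran from 0.083 (Col8a1) to 1.13 (Col6a3). Relative to the median under that scaling the chains lay 0.24 (Col8a1) to 1.28 (Col6a3) higher. As the scaling applies 1 factor to each library, values near those of the main fit follow by construction and are no separate check. Over all tested genes 774 were called higher and 346 lower. The counts were 235 and 99 without a filter, 467 and 3722 with library totals (11.1% of calls higher, against 69.1% as deposited and 58.2% with quantile normalization), 264 to 859 and 51 to 347 when 1 library was left out. Lower calls numbered 206 without a trend, and limma voom on the recovered reads called 1035 higher and 529 lower. The cause was not tested.

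The replicate number as a block gave 466 higher and 110 lower calls and 10 of 10 chains called higher, with Col8a1 passing (adjusted p = 0.0492), and it ended the call of Antxr1 (adjusted p = 0.0516). Same-numbered libraries did not deviate together (correlations 0.063, 0.059 and -0.050), so the numbers were not taken as pairs. The ratio of Col8a1 to Col8a2 (-0.033 on the log2 scale) ranged from -0.086 to 0.032 when 1 library was left out, with the turned values 0.0061 without NAC 1 and 0.032 without Control 2. That of Col12a1 to Col14a1 (0.091) ranged from -0.011 (without Control 1) to 0.25 (without Control 2). Col17a1 (0.027) turned to -0.087 with library totals, -0.0081 without NAC 1 and -0.015 without Control 3, with a leave-out range of -0.015 to 0.058. Without a filter Col8a2, Col14a1, Col15a1, LOC100909752, Col1a1, Fn1, Bgn, Ctsb, Wisp2 and Antxr1 lost their calls, and higher calls numbered 6 among fibrillar and basement membrane chains, 5 among matrix partners and 2 among proteases. With 3 libraries a group, no single ratio or share could pass 0.05.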

Other observations

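Col18a1, Col6a1 and Col6a2 lie on the same strand of chromosome 20 within 576 kb of the deposited coordinates (12225202 to 12801180), and 4 other rows lie between them. None of the 3 of these that could be tested was called by limma, and 1 of them had an unadjusted p under 0.05 (Pcbp3, 0.0229). Pcbp3, which encodes an RNA-binding protein and lies between Col18a1 and Col6a1, stood at 10.3 ± 1.71 FPKM in NAC and 7.88 ± 0.763 FPKM in Control (SD, n = 3 each; 0.34, limma adjusted p = 0.122). Slc19a1, a folate carrier gene next to Col18a1, stood at 3.76 ± 0.356 FPKM in NAC and 3.94 ± 0.323 FPKM in Control (-0.053, limma adjusted p = 0.759). These neighbours were chosen by position after values of the table had been seen.

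Profiles were also compared with those of tested genes other than the chains described here, which were left out of the ranking. Of these other genes, the most alike to Col6a3 in log2 values over the 6 libraries were Lum, Fn1 and Pdia6, a disulfide isomerase of the endoplasmic reticulum. For Col6a1 they were Serpinh1, the collagen chaperone HSP47, Scpep1, a serine carboxypeptidase, and Calr, which encodes the chaperone calreticulin. For Col6a2 they were Calr, P3h1, a prolyl 3-hydroxylase of collagen, and Glg1, a Golgi glycoprotein. Likeness was Pearson's r over 6 libraries, at least 0.998 in each case, which includes the difference between the groups.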
